A study of Mus musculus with 2 samples.

Results

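The genes described here encode 10 enzymes of the kynurenine pathway, the main route of tryptophan breakdown. They were Tdo2, Ido1, Ido2, Afmid, Kmo, Kynu, Haao, Qprt, Aadat and Acmsd, chosen by name as the features of the array whose gene name equals one of these symbols. All 10 were present on the array, with 12 of its 55681 probes, and 6 of them had a probe well above background on both arrays, against 25917 genes measured in this way in all. RNA came from the hippocampus of ICR mice, an outbred strain, 8 weeks after 5/6Nx (1 array) or after a sham operation (1 array). 5/6Nx stands for 5/6 nephrectomy, surgery that takes out most of the kidney mass and so models chronic kidney disease. The labels give neither the animals' age nor how many of them gave each RNA. With 1 array per group nothing could be tested between 5/6Nx and sham, and the differences describe only these 2 arrays.

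In this pathway tryptophan is opened by the dioxygenases TDO2, IDO1 or IDO2, and the product is hydrolysed to kynurenine. Kynurenine then has 2 main fates in the brain. Aminotransferases turn it into kynurenic acid, which blocks NMDA-type glutamate receptors, while the hydroxylase KMO leads, mainly in microglia, towards quinolinic acid, which activates them. Quinolinic acid is removed by QPRT, which feeds it into the synthesis of NAD. Kynurenines are cleared in part by the kidney and accumulate in uraemia. The comparison therefore concerns whether transcripts of these enzymes in the hippocampus differed in level after 5/6Nx.

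Each enzyme is read by 60-base probes, and parts of 5 of them are shown because they bear on how the values can be read. Sequences are those of the deposited scanner files, written 5′ to 3′, with coordinates on mm9.

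Qprt, chr7:134251475-134251534, minus strand, bases 1 to 30: ccgaagaagatgccaccagaatggactact

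Tdo2, chr3:81767918-81770928, minus strand, whole probe: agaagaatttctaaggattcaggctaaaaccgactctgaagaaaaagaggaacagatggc

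Ido2, chr8:25642929-25642988, minus strand, bases 1 to 30: cGATGATGATGATgaagattatgataacta

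Haao, chr17:84230696-84230755, minus strand, bases 31 to 60: aagaaatctctcAATAAAggcatcctgctg

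Ido1, chr8:25694613-25694672, minus strand, bases 31 to 60: tgagacccagtaAATAAAagttattgtgaa

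The Tdo2 probe covers 3011 bases of the genome with 60 bases of sequence, so it crosses at least 1 intron. Capitals in the Ido2 probe mark 4 GAT units in a row. That run, GATGATGATGAT, was found in 9 of the 55681 probes (0.0162%), read on the probe strand only. Capitals in the Haao and Ido1 probes mark AATAAA, the letters of the common polyadenylation signal. They occurred, on the same strand, in 10.1% of all probes. Bases G and C made up 21.7% of the Ido1 probe, against a median of 43.3% over all probes, and 0.449% of the probes had a share as low or lower. The Qprt probe had 55.0% G and C.

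Signals are given as the processed intensity of the spot, an arbitrary linear unit, with the error that the scanner software estimated for that spot. Differences are 5/6Nx minus sham on the log2 scale, with each array scaled by its 75th percentile (1264 in 5/6Nx and 1453 in sham). Equal raw signals thus give a difference of 0.20. A gene is counted as higher or lower at a difference of 2-fold or more, a size and not a test. Every enzyme probe had 1 spot on each array, with no outlier flag. The scanner error covers 1 spot and leaves out the variation between animals.

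Of the 6 measured enzymes 1 was at least 2-fold lower in 5/6Nx, Qprt, and 0 were at least 2-fold higher. Over all measured genes 8.18% were at least 2-fold apart, 4.9% higher and 3.28% lower. Among the 7602 genes within the signal range of the enzymes 12.9% were. A count of 1 in 6 is near these shares and shows nothing particular to the enzymes as a group. Their median difference was 0.19 (-0.023 after spike-in scaling), against 0.05 over all measured genes and 0.16 within their signal range. Single values ran between -1.68 and 0.94. At a threshold of 1.5-fold 2 enzymes were higher, Tdo2 and Ido2, and 1 lower, against 13.7% and 8.91% of all measured genes, and at 3-fold Qprt was still lower, against 0.945%. The split of all 2-fold differences depends on the scaling: 59.9% were higher here, 49.2% after quantile normalization, 47.9% after lowess, 49.4% in the authors' table, 42.3% after scaling to the median and 36.2% after scaling to spike-in probes. Spike-in scaling set the median of all genes at -0.16 and median scaling at -0.10, and a difference is therefore a position among the other genes.

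**Figure D1:**
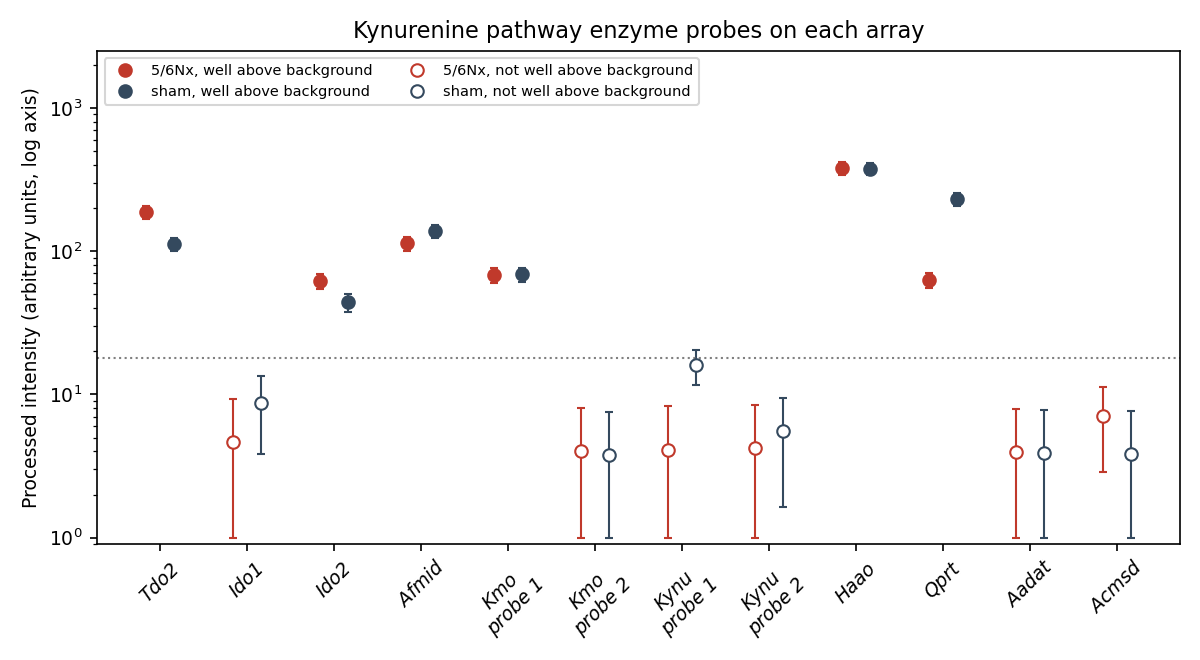
Processed intensity (arbitrary units, log axis) of the 12 enzyme probes on the 5/6Nx array (red) and the sham array (dark blue), with the scanner's error for each spot as bars, cut off at 1. Filled points are well above background and open points are not, and the dotted line marks 17.9, the lowest signal well above background on the sham array. Qprt has the widest gap between filled points, with 62.6 in 5/6Nx and 230.1 in sham.

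The first step is catalysed by the dioxygenases. Tdo2 encodes tryptophan 2,3-dioxygenase, a liver enzyme induced there by glucocorticoids and also known in the mouse hippocampus from dentate granule cells. Its signal was 187.2 ± 19.1 in 5/6Nx and 111.8 ± 11.8 in sham (scanner error, 1 spot each), a difference of 0.94 (1.92-fold) with a propagated scanner error of 0.21. The 5/6Nx value lay above the sham value by more than the scanner errors, and just under the 2-fold threshold. Differences as high or higher were found for 5.51% of all measured genes. Shares of this kind cover genes of any signal, and differences spread wider within the enzymes' signal range (SD 0.70 against 0.60). Ido2 encodes a second, related indoleamine dioxygenase. It had 61.7 ± 7.66 in 5/6Nx and 43.8 ± 6.36 in sham, a difference of 0.69 with an error of 0.28. Its value was higher in 5/6Nx too, from the probe with the GAT run shown above, and 10.3% of all genes were as high or higher.

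Ido1, the indoleamine dioxygenase induced by interferon gamma, did not reach a signal well above background in 5/6Nx or in sham. Its spot had 4.66 ± 4.68 in 5/6Nx, a surrogate value that the software sets for spots indistinguishable from background, and 8.68 ± 4.81 in sham. No fold is given for it, and the AT-rich probe shown above is its only one.

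Kynurenine formamidase, encoded by Afmid, releases kynurenine from the product of the dioxygenases. Its signal was 113.0 ± 12.1 in 5/6Nx and 138.6 ± 14.5 in sham, a difference of -0.09 with an error of 0.22. The difference was smaller than its error, and its sign turned to 0.02 with normexp and without background subtraction.

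Kmo, which encodes the hydroxylase that commits kynurenine to the quinolinic acid branch, had 67.8 ± 7.97 in 5/6Nx and 68.8 ± 7.98 in sham on 1 probe. The raw values were nearly equal, so the difference of 0.18 (error 0.24) mostly reflects the scaling, and it was -0.04 after spike-in scaling, -0.04 after lowess and -0.02 after quantile normalization and in the authors' table. The other Kmo probe was not above background, with surrogate values of 4.04 in 5/6Nx and 3.79 in sham. It lies on the same chromosome at chr1:177590341-177590400 of mm9, next to the measured one at chr1:177590673-177590732. Both probes carry the same transcript accession.

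Kynu encodes kynureninase, which acts on kynurenine and on its hydroxylated form. Neither of its 2 probes was well above background. The first had 4.12 ± 4.14 in 5/6Nx, a surrogate value, and 16.01 ± 4.32 in sham, just under the lowest signal well above background on that array (17.9). The second had 4.20 ± 4.21 in 5/6Nx, again a surrogate, and 5.55 ± 3.91 in sham. No fold is given, since neither group is well above background.

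Haao encodes the dioxygenase that makes the direct precursor of quinolinic acid. Its signal was 378.7 ± 38.1 in 5/6Nx and 376.6 ± 37.8 in sham. The difference of 0.21 was the size of its error of 0.21, and after spike-in scaling it was -0.01.

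Qprt, the quinolinate phosphoribosyltransferase gene, had the largest difference of the 6 measured enzymes. Its signal was 62.6 ± 7.39 in 5/6Nx and 230.1 ± 23.3 in sham. That is a difference of -1.68 with an error of 0.22, or 3.20-fold lower, and the raw signal in 5/6Nx was 0.272 times that in sham. Both spots were well above background, and the gap was larger than the scanner errors and than the median SD of 0.20 between probes of the same gene. That SD, over 7995 genes of any signal, compares probes on the same RNAs and leaves out the variation between animals. Of all measured genes, of any signal, 0.822% were as low or lower. No such share was taken within the enzymes' signal range, where differences spread wider. The size depends on the background correction: it was -1.11 with normexp and -1.003 without background subtraction, where Qprt lies at the 2-fold threshold. Qprt has 1 probe on this array, so no second probe checks the value.

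Aadat and Acmsd sit at branch points. Aadat encodes kynurenine aminotransferase II, which makes kynurenic acid in the mammalian brain, and Acmsd encodes the decarboxylase that diverts the precursor of quinolinic acid towards full oxidation. Aadat had surrogate values on both arrays, 3.96 in 5/6Nx and 3.91 in sham. Acmsd had 7.10 ± 4.21 in 5/6Nx and a surrogate value of 3.82 in sham. Neither was well above background, which leaves their levels unmeasured here and does not show that the transcripts are absent.

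**Figure D2:**
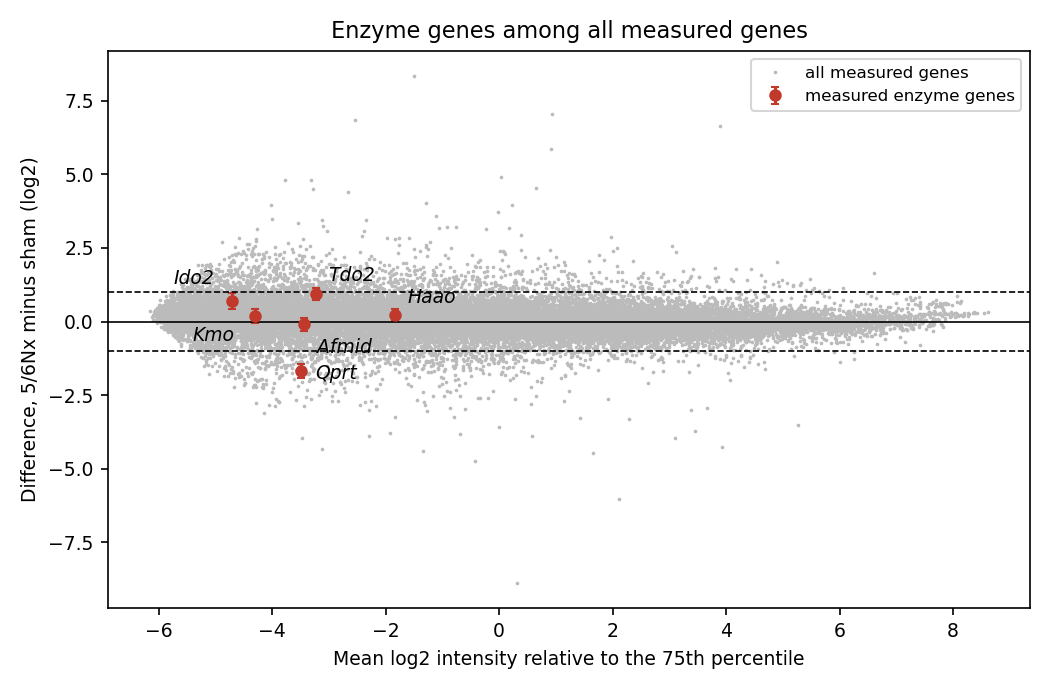
Difference between 5/6Nx and sham (log2, vertical) against the mean log2 intensity relative to the 75th percentile (horizontal) for 25917 measured genes in grey, with the 6 measured enzymes in red and their propagated scanner errors as bars. Dashed lines mark 2-fold. The enzymes lie where the grey cloud is wide, and Qprt (-1.68) is the enzyme outside the dashed lines.

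The genes before, after and around these enzymes were grouped in 8 further lists of 64 genes, of which 58 were measured. Past 2-fold, 5 of them were higher and 2 lower, together 12.1%, with a median of 0.04, against 8.18% and 0.05 over all measured genes. No list had more than 2 genes past 2-fold, and such counts are to be read against the 4.9% higher and 3.28% lower of all measured genes.

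The other kynurenine aminotransferases were all measured, and 0 of 3 were 2-fold apart. Kyat1 had 7697 in 5/6Nx and 8308 in sham (0.09, and 0.10 on its other probe). Got2, the mitochondrial aspartate aminotransferase, was at -0.04. Kyat3 had 2922 in 5/6Nx and 2378 in sham (0.50), while its other probe stood at 1.07, so its size differed between probes.

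In the glutarate branch, through which the product of ACMSD is oxidised, 1 of 3 genes was at least 2-fold higher. Dhtkd1, a subunit gene of the 2-oxoadipate dehydrogenase complex, had 711 in 5/6Nx and 276 in sham, a difference of 1.57. Gcdh, the glutaryl-CoA dehydrogenase gene, was at -0.85 with 1115 in 5/6Nx and 2315 in sham. Aldh8a1, whose product follows ACMSD, was at 0.02.

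Of 9 measured genes for the transport and other uses of tryptophan, 2 were at least 2-fold higher and 0 lower. Slc16a10, a transporter of aromatic amino acids, had 69.4 in 5/6Nx and 29.2 in sham (1.45). Only 1 of its 3 probes was well above background on both arrays, and the lowest such signal in sham was 17.9. Slc7a8, a light chain of large neutral amino acid exchange, had 3636 in 5/6Nx and 1849 in sham (1.18). Ddc, the aromatic amino acid decarboxylase gene, was at 0.83 and at 1.62 on its other probe, and Il4i1, an amino acid oxidase gene, at -0.57. Tph2, the neuronal tryptophan hydroxylase gene, was above background in sham only, with 13.2 in 5/6Nx and 31.6 in sham, and was at least 1.46-fold lower. The bound takes the higher of the dim probe's own signal and the lowest signal well above background on its array.

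Among 10 genes of NAD synthesis and salvage, into which QPRT feeds, 0 were 2-fold apart. Their median was -0.14 with 7 of 10 below 0, while 55.4% of all measured genes were above 0. All 10 lay between -0.77 and 0.20. The lowest were the nicotinamide riboside kinase genes Nmrk1, with 165 in 5/6Nx and 323 in sham (-0.77), and Nmrk2, with 43.9 in 5/6Nx and 84.6 in sham (-0.75). Nadk, the NAD kinase gene, was at -0.31 and its mitochondrial relative Nadk2 at 0.20.

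**Figure D3:**
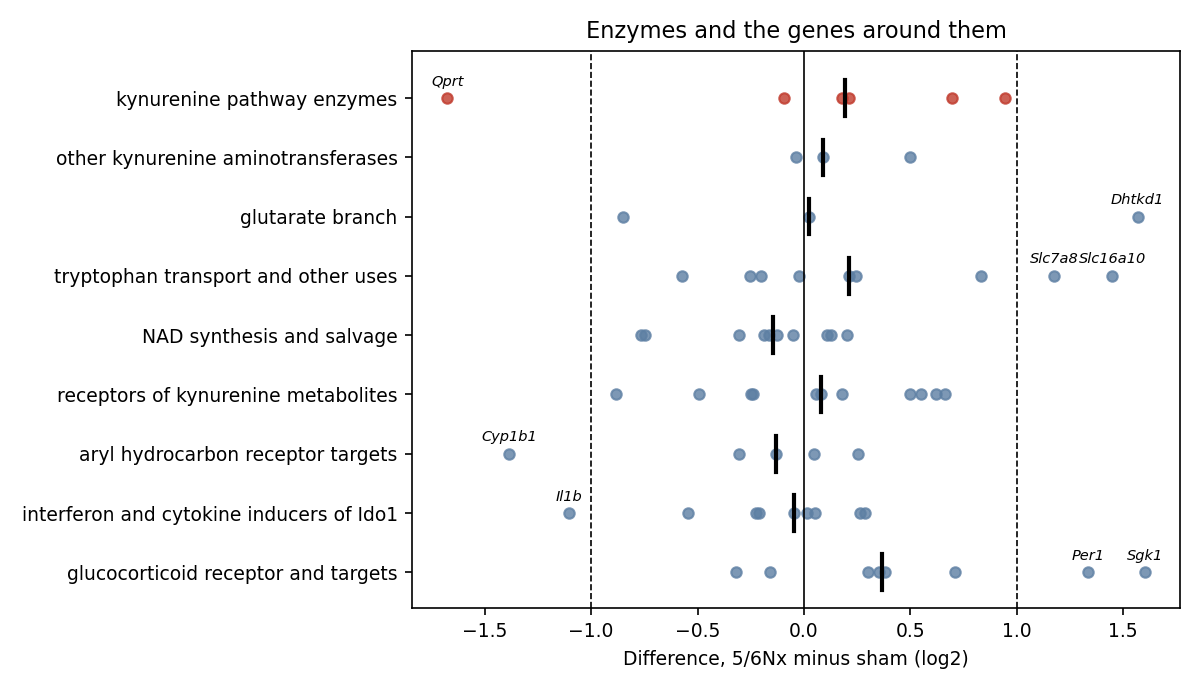
Difference between 5/6Nx and sham (log2) of each measured gene of the enzymes (red) and of the 8 lists around them (blue). Black bars are medians, dashed lines mark 2-fold and genes past it are named. Medians lie between -0.14 (NAD synthesis) and 0.37 (glucocorticoid list).

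All 11 genes listed for receptors of kynurenine metabolites were measured and 0 were 2-fold apart, with a median of 0.08. The list counts receptor subunits singly and also holds Arnt, which is not itself such a receptor. Grin3a, an NMDA receptor subunit gene, had the lowest value at -0.88, with 1371 in 5/6Nx and 2906 in sham, and -0.60 on its other probe. Grin2b was at 0.66 (0.37 on its other probe), Grin2a at 0.62 (0.61) and Grin3b at 0.55. Of the 7 targets of the aryl hydrocarbon receptor, which kynurenine can activate, 5 were measured and 1 was at least 2-fold lower. It was Cyp1b1, with 217 in 5/6Nx and 653 in sham (-1.39). Tiparp was at -0.31 and Nqo1 at 0.26, and Cyp1a1 and Cyp1a2 were below background on both arrays.

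Inducers of Ido1 were not higher as a group: of 9 measured genes 0 were at least 2-fold higher and 1 was lower, with a median of -0.04. Il1b, the interleukin-1 beta gene, had 26.4 in 5/6Nx and 64.5 in sham (-1.10), Irf1 was at 0.29 and Irf8 at 0.26. Ifng and Tnf were below background on both arrays, and Il6 was above it on 1 of its 2 spots in 5/6Nx (10.1 and 28.7) and on 0 of 2 in sham (6.80 and 13.3), so no fold is given. Of the 8 genes in the list of the glucocorticoid receptor and its targets, 2 were at least 2-fold higher and 0 lower, with a median of 0.37. Sgk1 was at 1.60, Fkbp5 at 0.71 and Klf9 at 0.38. Per1 was at 1.33 but at -0.02 on its other probe.

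The 2 samples also differed in markers of cell types, and in bulk RNA fewer cells of a type and less RNA per cell cannot be told apart. For reading the counts, 55.4% of all measured genes had a difference above 0. Markers of blood cells were lower in 5/6Nx, with 10 of 10 measured below 0, a median of -3.65 and a summed signal of 17.3 times the 75th percentile in 5/6Nx and 212 times in sham. The same held for leptomeningeal fibroblasts (10 of 10 below 0, median -2.26, summed signal 12.6 in 5/6Nx and 50.4 in sham) and for macrophages of the brain borders (5 of 5 below 0, median -1.91, 0.667 in 5/6Nx and 2.61 in sham, Cd163 not above background). The blood cell and border macrophage lists share Pf4, so their values are not fully separate. Choroid plexus markers were higher, with 9 of 9 above 0, a median of 3.97 and a summed signal of 165 in 5/6Nx and 3.09 in sham. The brightest gene of that list made up most of its sum in 5/6Nx. The part of these cells in the lower Qprt value was not tested.

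Dentate granule cell markers, relevant to Tdo2, had 8 of 10 above 0, against 55.4% of all measured genes. Their median was 0.33, with summed signals of 24.97 in 5/6Nx and 22.2 in sham, and 0 of 10 were 2-fold apart. Their part in the Tdo2 value was not tested. Microglial markers, relevant to Kmo, had a median of -0.23 with 4 of 10 above 0 and 2 of 10 at least 2-fold lower (Aif1 -1.29, Tmem119 -1.11), and summed signals of 63.0 in 5/6Nx and 67.9 in sham. The medians were -0.04 for astrocytes, -0.19 for neurons, -0.33 for oligodendrocytes and -0.83 for CA1 pyramidal cells (-0.40 with the mean over probes, where Mpped1 has -0.59 on one probe and 0.72 on the other). Single markers in these lists passed 2-fold. At least 2-fold lower were 4 of 8 CA1, 2 of 10 neuronal and 2 of 10 oligodendrocyte markers, against 3.28% of all measured genes. At least 2-fold higher were 1 oligodendrocyte and 1 astrocyte marker of 10 each, against 4.9%. All 10 neuronal and all 10 astrocyte markers were well above background on both arrays. Of 10 hepatocyte genes, included since several of these enzymes are abundant in liver, 6 were measured, with a median of 0.45. Above the median signal it was -0.68, from Apoa2 and Serpina1a alone. Fgb was at 1.36, Apoh at 0.66 and Serpina1a at -1.51. Apoa2 was the brightest of them, with 8120 in 5/6Nx and 8460 in sham (0.14). Hpd was above background in 5/6Nx only, at least 1.502-fold higher. Alb, Apoa1 and Ahsg were below background on both arrays.

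**Figure D4:**
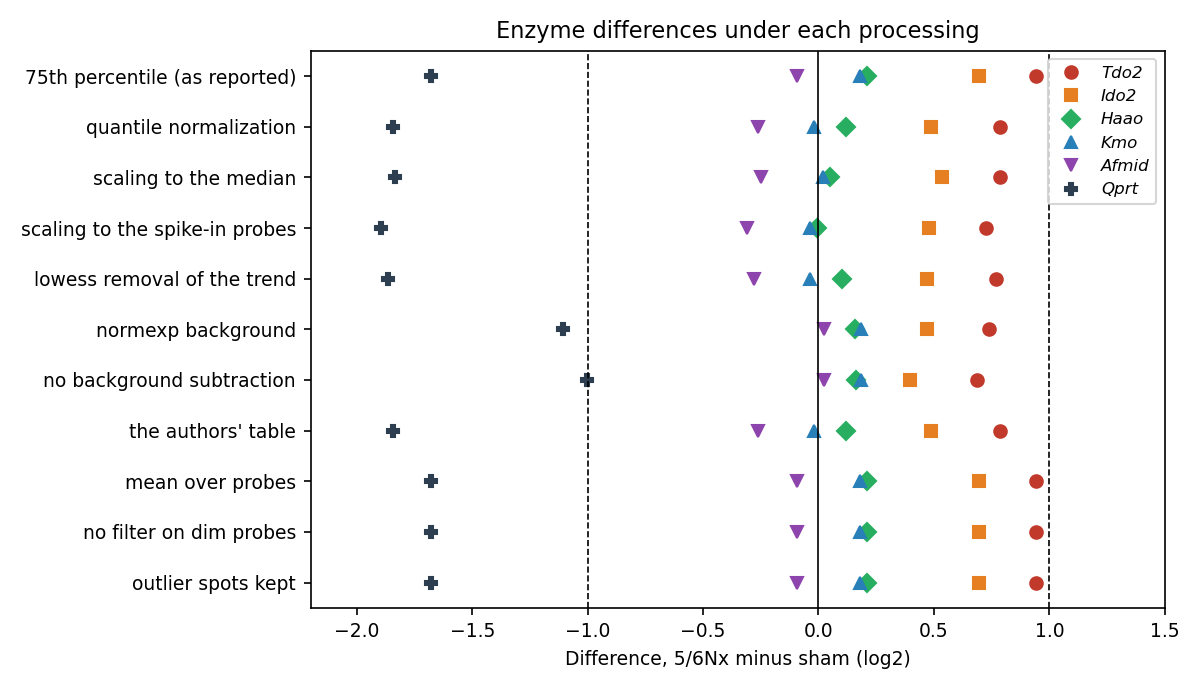
Difference between 5/6Nx and sham (log2) of the 6 measured enzymes as reported (top row) and under 10 other ways of processing. Mean over probes, no filter on dim probes and outlier spots kept could not move these values. Qprt stays at or beyond the lower 2-fold line (between -1.89 and -1.003), Tdo2 and Ido2 stay above 0 and under the upper line, and Kmo, Haao and Afmid lie close to 0 and change sign.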

How the data were processed

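Total RNA was amplified, labelled with Cy3 and hybridised to 1-colour arrays, per the labels' protocols. The deposited scanner files hold a linear intensity for each spot, with a p-value against background and quality flags. Feature Extraction 10.7.1.1 was used by the authors, per the file headers, whereas the submitters' processing notes name 9.5.1.1. The processed intensity is background-subtracted and detrended within each array, per the file headers, and nothing was normalized between arrays. The 2 arrays share 1 scan. The deposited series table holds linear intensities with the same distribution in both columns (median 124), and its direction was settled by correlation with the arrays (1.000 with its own array and 0.983 with the other).

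Control features were left out, as were outlier-flagged spots (97 in 5/6Nx, 105 in sham). Of the 59305 spots 72.5% in 5/6Nx and 72.7% in sham were well above background, and none was saturated. The log2 intensity was taken relative to the 75th percentile, spots of a probe were averaged (signals on the linear scale, differences on the log2 scale), and a gene was represented by its brightest probe well above background on at least 1 array. It counted as measured if that probe was above on both. Of 55681 probes 27235 were named by RefSeq accession, 3581 by symbol and 565 by synonym (GRCm38.p6, names only), and 24300 kept the file's name. All 12 enzyme probes matched by accession. Python 3.11.15 and limma 3.58.1 (normexp) were used, and the calculation was tested on simulated data. Precision is limited by the number of arrays.

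The enzymes, the lists and the rule for naming genes were chosen with earlier results of these data known. All enzymes are named, and of each other list the 2 to 4 largest absolute differences, genes above background on 1 array, and every gene of lists of up to 4. A gene that this rule takes is not reported here. Exon and untranslated region annotation of the probes was not used here.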

Additional observations from a re-analysis of the deposited data

How the results depend on the processing

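Each group has 1 array, so no array could be left out, and signal over background limits what the dim probes of Ido1, Kynu, Aadat and Acmsd show. No paired analysis was possible because neither condition has a second array. A value counted as moved beyond 0.20, the SD between probes of a gene. The cause was not tested, except where a filter or threshold sets it. Across 10 alternatives Qprt lay between -1.89 and -1.003, Tdo2 between 0.69 and 0.94 and Ido2 between 0.40 and 0.69. Mean over probes, no filter and kept outlier spots could not move these values, as each enzyme had 1 measured probe with 1 unflagged spot. The authors' table nearly repeated quantile normalization (Qprt at -1.84 in each). With no filter 10 enzymes counted, 1 higher (Acmsd) and 2 lower (Kynu besides Qprt), and the Acmsd and Kynu spots were not well above background on either array. Above the median signal 0 enzymes were left, so their median could not be given, and of the other pathway genes 3 were higher and 0 lower. Of the glutarate branch only Gcdh was left by that filter, at -0.85. At 1.5-fold 2 enzymes were higher. Other pathway genes at least 2-fold lower were 4 with median and with spike-in scaling and 1 with normexp and without background subtraction. Spike-in scaling, a constant shift, set the medians at -0.023 for the enzymes, -0.13 for the other aminotransferases, -0.20 for the glutarate branch, -0.0069 for tryptophan transport, -0.36 for NAD synthesis, -0.14 for receptors, -0.35 for aryl hydrocarbon receptor targets, -0.26 for inducers of Ido1 and 0.15 for the glucocorticoid list. Over all genes 799 were higher and 1411 lower with it (1270 and 849 as reported), 685 and 493 with normexp, 642 and 466 without background subtraction, 2592 and 1665 with no filter, and 320 and 303 above the median signal.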

Other observations

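The measured genes next to each enzyme on the chromosome were looked up after the enzyme values were seen, in the gene order of GRCm38.p6. Of the 3 measured neighbours on either side of Qprt on chromosome 7, none was at least 2-fold lower, against 3.28% of all measured genes. At that share so few genes show nothing particular. Kif22, a mitotic kinesin gene, stood at 1.27, and Spn, which encodes the leukocyte surface protein CD43, at 0.53. AI467606 was at 0.14, Maz at 0.12, Cd2bp2 at 0.02 and Tbc1d10b at -0.06. Beside Kmo on chromosome 1, which was at 0.18, Opn3, an opsin gene, was lower at -2.09 and Chml, a Rab escort protein gene, at -1.45. Beside Afmid on chromosome 11, which was at -0.09, the thymidine kinase gene Tk1 was at -1.23. The 6 neighbours of Tdo2 lay between -0.94 (Gucy1a1) and 0.42 (Ctso), those of Ido2 between -0.59 (Sfrp1) and 0.45 (Adam9), and those of Haao between -0.28 (1810073O08Rik) and 0.42 (Kcng3).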
